A study of Mus musculus with 8 samples.

Results

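The 56 genes described here encode developmental transcription factors outside the Hox clusters, nearly all with a homeodomain, in 11 families: 9 Pax genes, 5 sine oculis genes (Six2 to Six6), 10 LIM (Lhx and Isl), 10 Nkx, 6 Dlx, 6 Irx, 2 Pitx, 3 CUT (Onecut3, Cux1 and Cux2), 2 Msx, 2 Hmx genes and Pdx1. They were chosen by gene name in the GENCODE annotation of the mm10 genome, by a rule that uses no measured value although earlier results of these data were known, and are 56 of 21851 protein-coding genes examined. Histone H3 trimethylated at lysine 27 (H3K27-me3) was mapped by chromatin immunoprecipitation and sequencing in liver of male C57BL/6 mice. All mice carried floxed Jmjd3 alleles and, at an age of 8 weeks, received AAV-TBG-Cre, in which the TBG promoter drives Cre recombinase in hepatocytes, or the control virus AAV-GFP, and all were fasted for 16 h at 12 weeks after injection. There were 2 H3K27-me3 and 2 input libraries per virus, and the authors pooled each virus group into 1 list of enriched regions, so that the 2 lists, called AAV-Cre and AAV-GFP, hold no value per mouse. With 1 list per group no test between the groups was possible, and each difference below is between these lists. Minced liver was used, although the labels name primary liver cells, so that fewer cells with the mark and less mark per cell cannot be told apart, and in the AAV-Cre group only hepatocytes were meant to lose JMJD3.

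Homeobox factors bind DNA through the homeodomain and set up organs, segments and cell types in the embryo. In adult cells that do not use them they are typical targets of Polycomb complexes, which deposit H3K27-me3 over broad domains around their CpG-rich start sites and keep them silent. JMJD3, encoded by Kdm6b, removes this mark. Pax1 and Pax9 have a paired domain but no homeodomain, and Pax2, Pax5 and Pax8 have only part of one.

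The AAV-Cre list held 59267 regions over 73.7 Mb, and the AAV-GFP list 34586 regions over 14.9 Mb, a ratio of covered bases of 4.93. The depth of the libraries is unknown, since the lists hold no read counts. The shortest region was 300 bp in AAV-Cre and 120 bp in AAV-GFP, and 88.6% and 46.9% of regions had a q-value of 0.05 or lower. The part of depth and peak calling in any difference between the lists was not tested.

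H3K27-me3 regions lay at nearly all of these regulators in both lists. Within 1 kb of a start site, 54 of the 56 had a region in AAV-Cre and 51 in AAV-GFP, where the background over all protein-coding genes was 24% and 16.6%. All 51 were marked in both lists, against 16.3% of all genes. Msx2, Nkx2-6 and Pax4 were marked within 1 kb in AAV-Cre alone (3 of 56, background 7.63%), 0 in AAV-GFP alone (background 0.288%), and Cux1 and Six5 in neither. Within 15 kb, the counts were 56 in AAV-Cre and 54 in AAV-GFP (background 41.6% and 28%), with Six5 and Nkx2-6 in AAV-Cre alone (background 14.8%) and 0 in AAV-GFP alone (background 1.21%). Over the gene body, 54 had a region in AAV-Cre and 51 in AAV-GFP (background 28.9% and 20.7%), 3 in AAV-Cre alone (background 8.87%) and 0 in AAV-GFP alone (background 0.723%). With AAV-Cre reduced to the covered length of AAV-GFP the direction turned: 1 gene was marked in AAV-Cre alone and 5 in AAV-GFP alone within 1 kb, 0 and 6 within 15 kb, and 1 and 5 over the body. This setting sets the 2792 AAV-Cre regions with the lowest p-values beside all 34586 AAV-GFP regions, so the turn depends on how AAV-Cre was reduced.

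The sequences just upstream of the start sites are shown for 5 genes that span these outcomes: Hmx2 and Hmx3, which share the widest AAV-GFP region of the group, Msx2, marked at its start site in AAV-Cre alone, and Six5 and Cux1, unmarked within 1 kb in both lists. Each is the first stretch of 250 bases before the GENCODE start site that overlaps no annotated exon, read from the RefSeq copy of GRCm38.p6 (the assembly named mm10), 5′ to 3′ on the strand of the gene, with CG dinucleotides in capitals. Hmx2 is at chr7:131548507-131548756 on the plus strand, Hmx3 at chr7:131541282-131541531 on the plus strand and ending 1335 bp before its start site, Msx2 at chr13:53473075-53473324 on the minus strand, Six5 at chr7:19094294-19094543 on the plus strand and Cux1 at chr5:136567591-136567840 on the minus strand.
Hmx2: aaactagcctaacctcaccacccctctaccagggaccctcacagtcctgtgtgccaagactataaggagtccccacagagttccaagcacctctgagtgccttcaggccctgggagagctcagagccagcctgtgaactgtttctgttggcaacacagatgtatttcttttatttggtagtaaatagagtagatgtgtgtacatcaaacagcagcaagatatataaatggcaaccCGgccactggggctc
Hmx3: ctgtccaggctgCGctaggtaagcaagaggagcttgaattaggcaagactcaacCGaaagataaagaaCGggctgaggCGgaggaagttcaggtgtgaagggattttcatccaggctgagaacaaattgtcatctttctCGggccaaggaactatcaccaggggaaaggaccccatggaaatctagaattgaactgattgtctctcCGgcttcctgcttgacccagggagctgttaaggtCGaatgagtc
Msx2: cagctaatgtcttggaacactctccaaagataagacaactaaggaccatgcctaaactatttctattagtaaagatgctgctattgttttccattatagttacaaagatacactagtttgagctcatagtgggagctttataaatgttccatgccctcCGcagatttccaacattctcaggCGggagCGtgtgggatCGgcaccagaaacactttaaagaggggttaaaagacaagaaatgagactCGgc
Six5: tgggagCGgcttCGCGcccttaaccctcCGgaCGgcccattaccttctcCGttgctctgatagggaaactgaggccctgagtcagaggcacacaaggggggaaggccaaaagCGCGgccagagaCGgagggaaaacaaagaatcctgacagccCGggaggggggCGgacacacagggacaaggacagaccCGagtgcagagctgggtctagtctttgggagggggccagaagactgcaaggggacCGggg
Cux1: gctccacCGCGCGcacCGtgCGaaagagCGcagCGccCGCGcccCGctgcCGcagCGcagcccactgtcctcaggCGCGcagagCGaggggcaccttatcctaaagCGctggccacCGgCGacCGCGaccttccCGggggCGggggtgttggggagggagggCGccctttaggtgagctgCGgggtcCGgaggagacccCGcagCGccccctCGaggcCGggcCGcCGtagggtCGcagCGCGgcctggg

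The Hmx2 and Hmx3 stretches were covered over all 250 bases in both lists and held 1 and 7 CG. The Msx2 stretch held 5 CG, of whose 250 bases AAV-Cre regions covered 132 and AAV-GFP regions 0. The Six5 and Cux1 stretches held 13 and 34 CG and were covered over 0 bases in both lists. In the 250 bases before the start sites of all 21851 genes, 92.6% held at least 1 CG, the median was 9, and 3.95% held as many as the Cux1 stretch. Over the wider window of 1 kb on each side of the start site, the 56 genes had a median CpG observed over expected of 0.613, against 0.484 over all genes, and a median of 103.5 CpG against 63. Over the genome, genes marked within 1 kb in both lists had a median of 84 CpG and those marked in neither 59. Within the group this ratio did not order the genes by coverage within 15 kb, with Pearson r of 0.17 in AAV-Cre and 0.07 in AAV-GFP and Spearman rho of 0.00062 and −0.0094 (56 genes, all from the same 2 lists). The lowest and the highest ratios were those of Pax4 (0.107) and Cux1 (0.868), both weakly covered.

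Coverage, the percent of bases within 15 kb of a gene's start sites that lay inside regions, was higher in AAV-Cre at all 56 regulators. The lowest, median and highest values were 5.32%, 65.2% and 96.4% in AAV-Cre and 0%, 32.5% and 77.7% in AAV-GFP, while the median over all protein-coding genes was 0% in each list. The plot of coverage gene by gene shows a similar order of genes in both lists (Pearson r 0.86, Spearman rho 0.84 over 56 genes, some of which share regions). Of the 9351 protein-coding genes with a region within 15 kb in either list, 97.0% also had higher coverage in AAV-Cre, so this direction is near that of the genome. When AAV-Cre was reduced to its 2792 regions with the lowest p-values, which cover as many bases as the whole AAV-GFP list, coverage was higher in AAV-Cre at 41 of the 56 and its median was 41.9%.

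**Figure D1:**
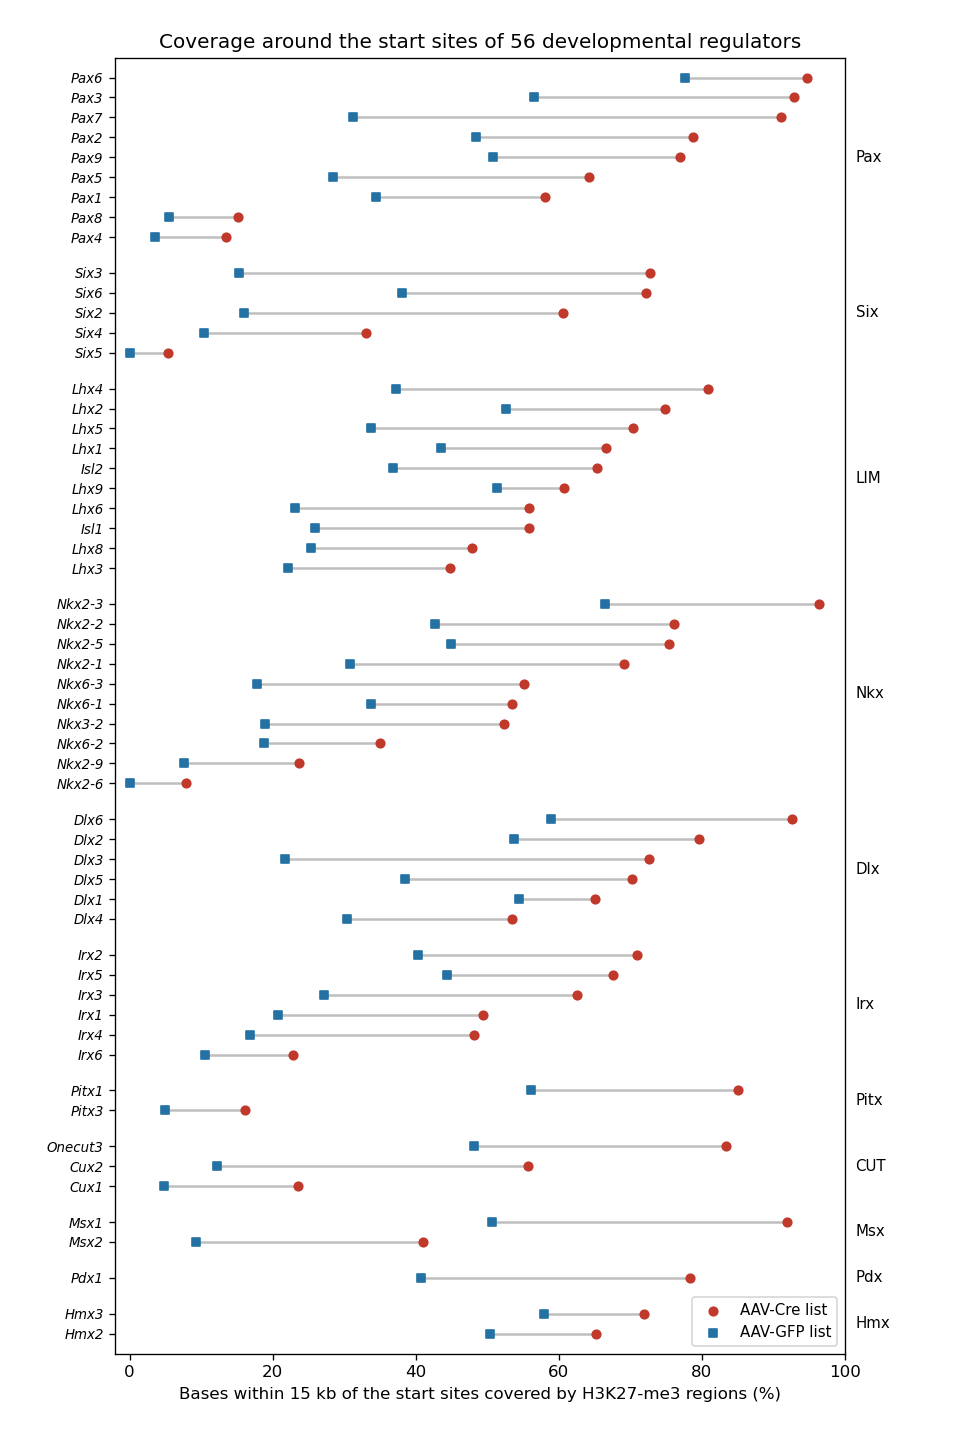
Percent of bases within 15 kb of the start sites covered by H3K27-me3 regions (x axis) for each of the 56 genes (y axis, grouped by family), with AAV-Cre as red circles and AAV-GFP as blue squares joined by a line. Every circle lies to the right of its square, from Six5 (5.32% and 0%) to Nkx2-3 (96.4% and 66.4%).

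Summed over the 15 kb windows and bodies of the 56 genes, regions covered 1227 kb in AAV-Cre and 553 kb in AAV-GFP, or 45.6% and 20.6% of 2689731 bp, a ratio of 2.22. The same sum over all protein-coding genes gave a ratio of 4.2. Per gene, the ratio of bases covered within 15 kb had a median of 1.89 over the 54 regulators covered in both lists and of 3.80 over 5850 such genes of the genome. Coverage cannot exceed the whole window, which caps the ratio that a gene with high AAV-GFP coverage can have. Pax6, with 77.7% in AAV-GFP, had a ratio of 1.22. The part of this cap in the lower median of the 54 regulators was not tested. The summed ratio at the 56 genes lay below that of the whole lists, whereas with equal covered length it lay above it, at 1.29 beside 0.9999. The second comparison depends on how AAV-Cre was reduced, which was to its 2792 regions with the lowest p-values. Of the AAV-GFP bases at these genes, 99.0% lay inside AAV-Cre regions (93.3% over the whole lists), and of the AAV-Cre bases 44.6% lay inside AAV-GFP regions (18.9% over the whole lists). Of the 679016 bp covered in AAV-Cre alone, 57.6% lay within 1 kb of an AAV-GFP region, against 36.8% over the whole lists.

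As deposited, the AAV-GFP list held more and shorter regions at these loci. There were 447 AAV-Cre regions and 726 AAV-GFP regions at the 56 genes, with median widths of 1152 and 327 bp. At 43 genes AAV-GFP had more regions within 15 kb than AAV-Cre and at 11 fewer, whereas 34.7% of all genes with a region in both lists had more in AAV-GFP. These counts depend on the shortest region of each list, since with a width of at least 300 bp in both lists AAV-GFP had more regions at 27 of the 56 genes and fewer at 21. Overlaps between single regions were counted at the 56 genes only, with no share over all regions to set beside them. Of the 726 AAV-GFP regions, 706 overlapped exactly 1 AAV-Cre region and 15 overlapped none. Of the 447 AAV-Cre regions, 128 overlapped more than 1 AAV-GFP region, 64 overlapped 1 and 255 none, and a single region at Cux2 and another at Nkx2-3 each held 24. The map of regions shows this as long red blocks opposite rows of short blue ones.

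**Figure D2:**
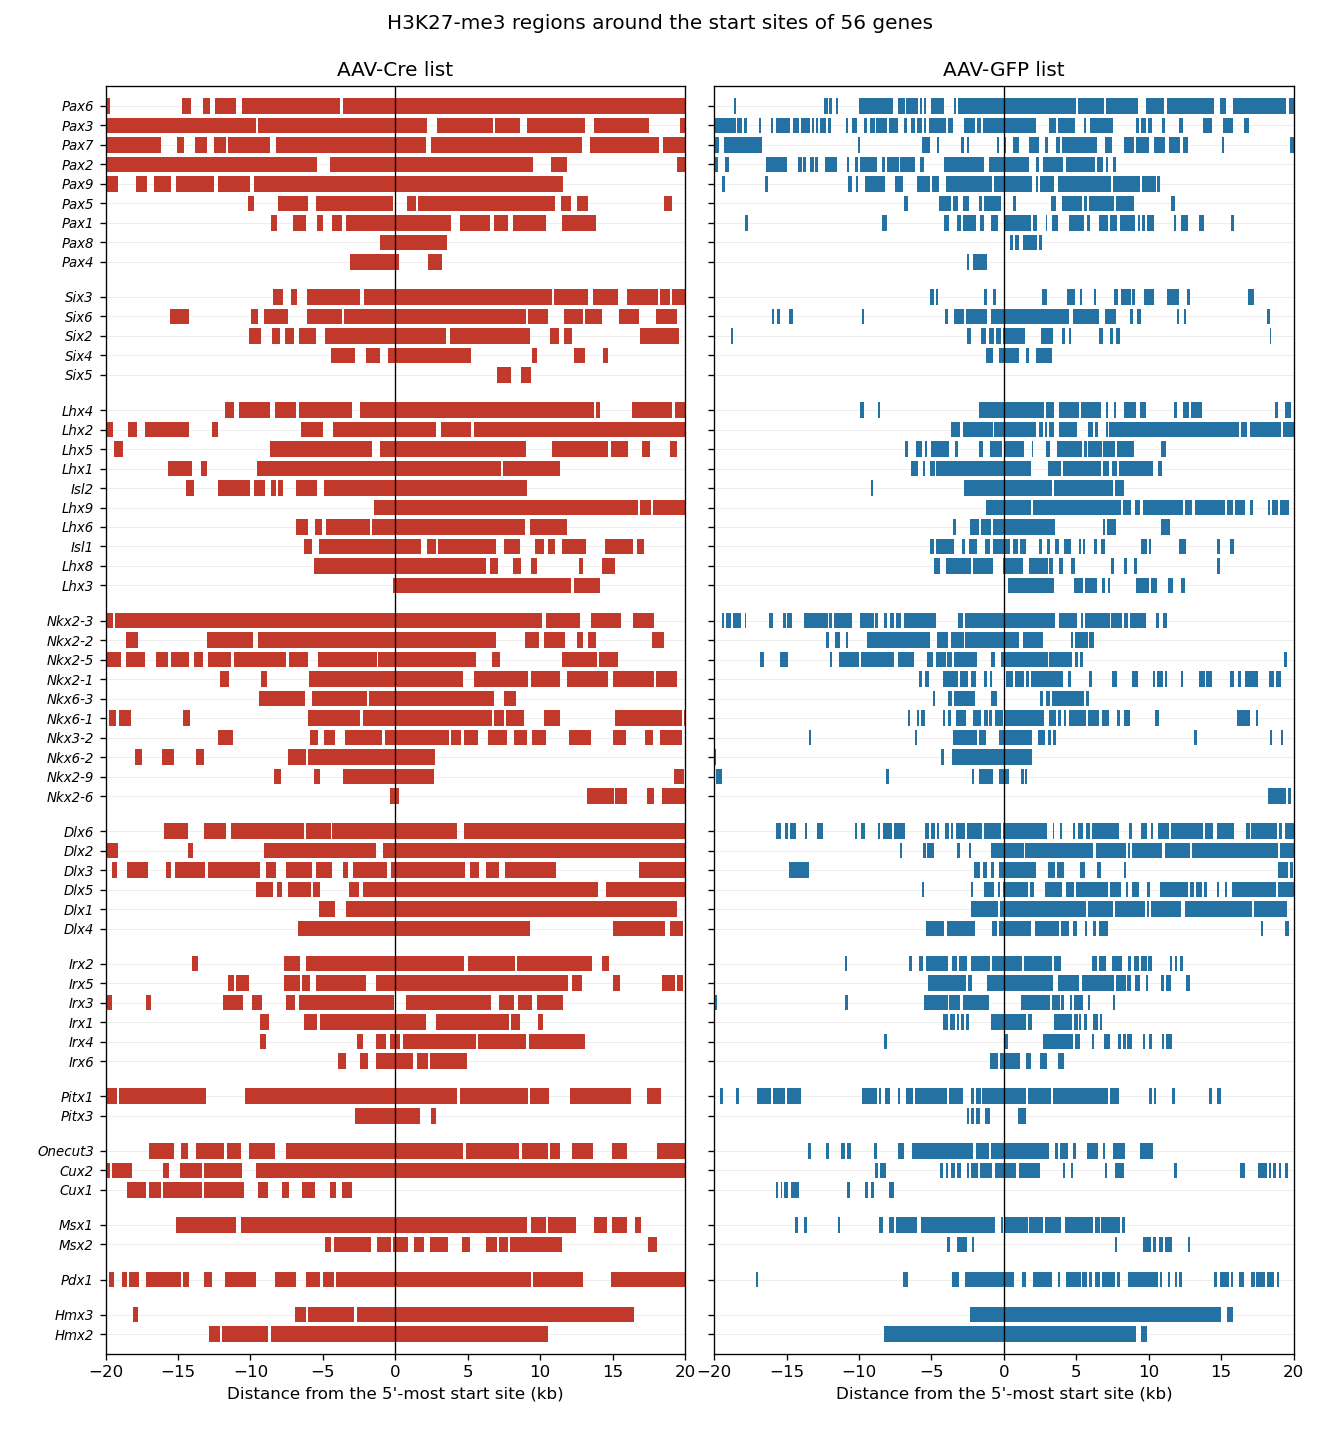
H3K27-me3 regions (bars) of AAV-Cre (left, red) and AAV-GFP (right, blue) by distance in kb from the most upstream start site of each of the 56 genes, with positive distances in the direction of transcription. Long blocks over the start site in AAV-Cre face several short pieces in AAV-GFP at most genes, while Hmx2 and Hmx3 show 1 long block in both, and Cux1 and Six5 show none over the start site.

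Around the start sites the mark had a similar shape in both lists. At the most upstream start site itself, 92.9% of the 56 genes lay in a region in AAV-Cre and 67.9% in AAV-GFP, compared with 18.1% and 9.56% of all genes. At 5 kb upstream the shares were 64.3% and 30.4%, and at 5 kb downstream 78.6% and 55.4%. At 10 kb upstream they were 30.4% and 5.36%, and at 10 kb downstream 64.3% and 32.1%. Coverage therefore reached further downstream than upstream of the most upstream start site in both lists. By this choice of start site any other start sites of a gene lie downstream, as do the partners in the convergent Dlx pairs. How much this adds to the difference was not tested. The share of all genes was 4.77% and 1.28% by 10 kb downstream.

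**Figure D3:**
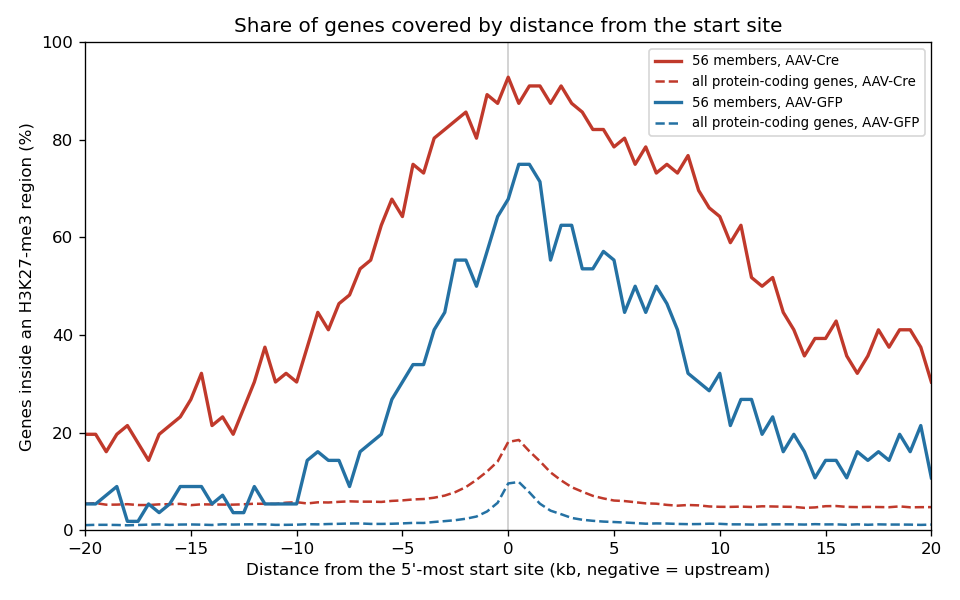
Share of genes (percent, y axis) that lie inside an H3K27-me3 region at each distance in kb from the most upstream start site (x axis, negative upstream), for the 56 genes (solid) and all protein-coding genes (dashed) in AAV-Cre (red) and AAV-GFP (blue). The solid lines stand at 92.9% and 67.9% at distance 0, with AAV-GFP at 42 of 56 genes from 0.5 to 1 kb downstream, and fall more slowly downstream than upstream.

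Whole gene bodies were covered at 16 of the 56 genes in AAV-Cre, namely Dlx1, Dlx2, Dlx4, Dlx5, Hmx2, Hmx3, Isl2, Lhx1, Lhx3, Msx1, Nkx2-3, Nkx2-9, Nkx3-2, Nkx6-3, Pdx1 and Six6 (background 1.33%). In AAV-GFP this held for Hmx3 alone (1 of 56, background 0.174%). Bodies that were complete in AAV-Cre were nearly so in AAV-GFP at Isl2 (98.6%), Hmx2 (98.5%), Nkx2-3 (98.3%) and Dlx1 (98.0%). Nkx2-9 went from 35.4% of its 1896 bp in AAV-GFP to the whole body in AAV-Cre. Longer genes were covered over a smaller share of the body, with Pearson r of −0.52 and Spearman rho of −0.55 in AAV-Cre and −0.48 and −0.46 in AAV-GFP over the 56 genes.

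The widest region at a gene, by which a broad domain is described here, was wider in AAV-Cre at all 56 genes, with a median of 11373.5 bp in AAV-Cre and 2630.5 bp over the 54 genes with one in AAV-GFP. The medians over all genes with a region were 2065 and 675 bp, and of the 9726 genes with a region in either list 97.0% had the wider one in AAV-Cre. Merging regions up to 5 kb apart brought the medians of the 56 genes closer, to 32901 and 18113 bp, and the AAV-Cre region was then wider at 54. Regions of 5 kb or more lay at 47 of the 56 genes in AAV-Cre (background 7.24%) and at 13 in AAV-GFP (background 0.453%). Regions at these genes made up 65 of the 1604 AAV-Cre regions of that width (4.05%) and 11 of the 57 in AAV-GFP (19.3%), where their share of regions of any width was 0.754% and 2.099%.

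In AAV-Cre the widest regions lay at Cux2 (31360 bp), Nkx2-3 (29440 bp), Pax6 (28664 bp), Dlx1 and Dlx2 (22877 bp, 1 region) and Pax9 (21336 bp). In AAV-GFP they lay at Hmx2 and Hmx3 (17378 bp, 1 region), Lhx2 (8964 bp), Pax6 (8174 bp), Lhx1 (6511 bp) and Nkx2-3 (6164 bp). The AAV-GFP region over Hmx2 and Hmx3, chr7:131540497-131557874, was the widest of that list at any protein-coding gene, and the AAV-Cre region over the pair was 19109 bp. The plot of widest regions sets Hmx2 and Hmx3 close to equality and Cux2 and Six3 far from it. Six3, which patterns the forebrain and eye, had a widest region of 12965 bp in AAV-Cre and 837 bp in AAV-GFP.

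**Figure D4:**
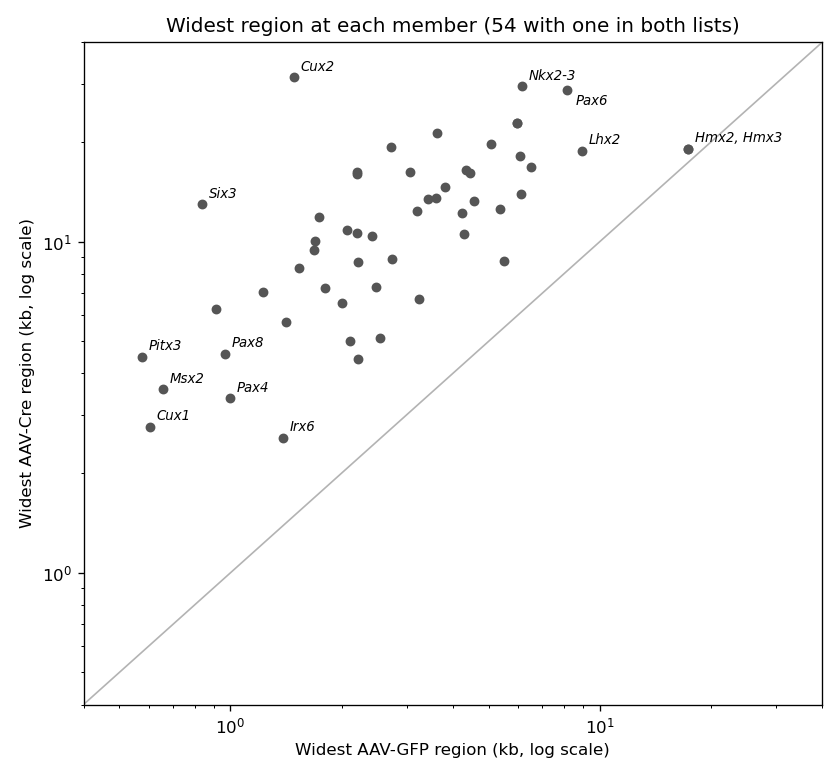
Width in kb of the widest region at each gene in AAV-GFP (x axis, log scale) and in AAV-Cre (y axis, log scale), for the 54 genes with a region in both lists, with a line where both are equal. All points lie above the line, Hmx2 and Hmx3 nearest to it (17378 and 19109 bp) and Cux2 far above it (1487 and 31360 bp).

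The Pax genes act in eye, kidney, muscle, thyroid and B cell development. Coverage within 15 kb ranged from 94.7% in AAV-Cre and 77.7% in AAV-GFP at Pax6, a regulator of eye and pancreas, to 13.5% and 3.63% at Pax4, a factor of pancreatic beta cells. Pax3 and Pax7, which act in muscle precursors and neural crest, were alike in AAV-Cre at 92.9% and 91.1% but stood at 56.5% and 31.3% in AAV-GFP. Pax8, needed for thyroid follicular cells, was weakly covered in both lists at 15.2% and 5.52%. Pax5, which commits cells to the B lineage, had 64.2% and 28.4% around its start sites, while 21.3% and 3.93% of its body of 185731 bp was covered. Among the Pax genes covered over the body in both lists, the long bodies of Pax2, Pax3, Pax5 and Pax7 were the ones with the largest ratios of covered body bases between the lists, from 3.78 at Pax3 to 5.41 at Pax5.

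Among Six2 to Six6, Six3 was highest in AAV-Cre (72.8%, with 15.3% in AAV-GFP) and Six6 was highest in AAV-GFP (38.1%, with 72.2% in AAV-Cre). Six6 acts in the retina and pituitary. Six2, which maintains kidney progenitors, had 60.6% in AAV-Cre and 15.9% in AAV-GFP, and the ratios of Six3 and Six2, 4.77 and 3.80, were among the 5 highest of the group. Six4 had 33.1% and 10.4%. Six5, which is expressed in many adult tissues, was lowest with 5.32% and 0%.

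The LIM genes specify motor neurons, pituitary, limb and other lineages, and all 10 were marked within 1 kb in both lists. Coverage in AAV-Cre ran from 80.8% at Lhx4 to 44.8% at Lhx3, both of which act in the pituitary and had 37.2% and 22.2% in AAV-GFP. The smallest ratio of the whole group was at Lhx9, a gonadal and neural factor, with 60.7% and 51.4% (ratio 1.18). Lhx2, which among liver cells is known from stellate cells, had 74.9% and 52.7%, the highest of the family in AAV-GFP, and its region of 8964 bp in that list lay within its body. Isl2, a motor neuron factor, held the strongest region of the group, chr9:55536241-55550217, which ranked 2 in the AAV-Cre list by p-value with a fold enrichment of 20.7 over input and a q-value of 1.48e-118. In AAV-GFP the region over the Isl2 start site was 6130 bp long, with a fold of 5.33 and a q-value of 1.58e-28. Together 3 AAV-GFP regions filled 77.6% of the AAV-Cre region.

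The Nkx genes spanned nearly the whole range of coverage in a single family. Nkx2-3, a factor of gut and spleen, had the highest coverage of all 56 genes in AAV-Cre at 96.4%, with 66.4% in AAV-GFP. Nkx2-6, which acts in the pharyngeal region, had 7.93% and 0%. The factors of lung and thyroid (Nkx2-1), heart (Nkx2-5) and pancreatic islet (Nkx2-2) lay between, with 69.2%, 75.4% and 76.1% in AAV-Cre and 30.8%, 44.9% and 42.7% in AAV-GFP. Nkx6-2, a neural factor, had low coverage of 35.0% and 18.8% in windows that are mostly empty beyond a single strong region, of 8728 bp in AAV-Cre (rank 81 by p-value) and 5504 bp in AAV-GFP.

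The Dlx genes, which pattern the jaw and forebrain, lie in convergently transcribed pairs, and all 6 were marked in both lists. Dlx6 was highest in AAV-Cre with 92.6% (58.9% in AAV-GFP) and Dlx4 lowest with 53.4% (30.5%). Dlx1 and Dlx2, with start sites 18641 bp apart, shared 1 AAV-Cre region, and at Dlx1 the coverage of 65.0% and 54.5% gave one of the lowest ratios, 1.19. Dlx5 and Dlx6, 18734 bp apart, shared 2 regions in AAV-Cre and 12 in AAV-GFP. Dlx3 and Dlx4, 26144 bp apart, shared 0 in both lists, and Dlx3 had the highest ratio among the Dlx genes, 3.35. Values of genes in a pair that shares regions are not independent of each other.

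The Irx genes act in heart, limb and nervous system and stand in clusters of 3. Irx2 was highest in AAV-Cre with 71.0% (40.4% in AAV-GFP), and Irx5 highest in AAV-GFP with 44.4% (67.6% in AAV-Cre). Irx6 was lowest with 22.9% and 10.5%. At Irx3 the nearest AAV-GFP region began 996 bp from a start site, so its call within 1 kb rests on a few bases. Irx4 had 3 AAV-Cre regions within 1 kb and 1 AAV-GFP region, which covered 10.1% of that window.

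Pitx1, a hindlimb factor, was strongly covered at 85.1% in AAV-Cre and 56.2% in AAV-GFP, while Pitx3, a factor of lens and dopamine neurons, had 16.1% and 4.98%. Msx1 and Msx2 act in teeth, skull and limb. Msx1 had 91.9% and 50.6%, and Msx2 41.0% and 9.28%. Pdx1, the master regulator of the pancreas, had 78.4% and 40.8%, its body being covered in full in AAV-Cre and over 65.8% in AAV-GFP. Hmx3 had 72.0% and 57.9% and Hmx2 65.3% and 50.4%, and both act in the inner ear. The 2 Hmx genes, 5906 bp apart, lie in the same region in each list, and their ratios of 1.24 and 1.295 were among the 5 lowest.

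Of the CUT genes, Onecut3, a relative of the liver factor Onecut1, was covered at 83.4% in AAV-Cre and 48.1% in AAV-GFP, and its strongest AAV-GFP region ranked 30 in that list by p-value. Cux2, a neural factor whose expression in mouse liver is known to be female-biased, had 55.7% and 12.2%. The AAV-Cre region over its start site, chr5:122028110-122059469, contained 24 AAV-GFP regions that together made up 30.5% of its length. Over its body of 193737 bp, 37 AAV-Cre regions covered 48.3% and 29 AAV-GFP regions 5.03%, a ratio of 9.60. Cux1, which is expressed in most tissues, had 0 regions within 1 kb of a start site and 0 over its body of 319356 bp in both lists. Upstream of Cux1, 7 AAV-Cre regions began 3024 bp away and 6 AAV-GFP regions 7613 bp away, covering 23.6% and 4.84% of its windows, and all of them were intergenic. Its ratio of 4.88 was the highest of the group and rests on these upstream regions.

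**Figure D5:**
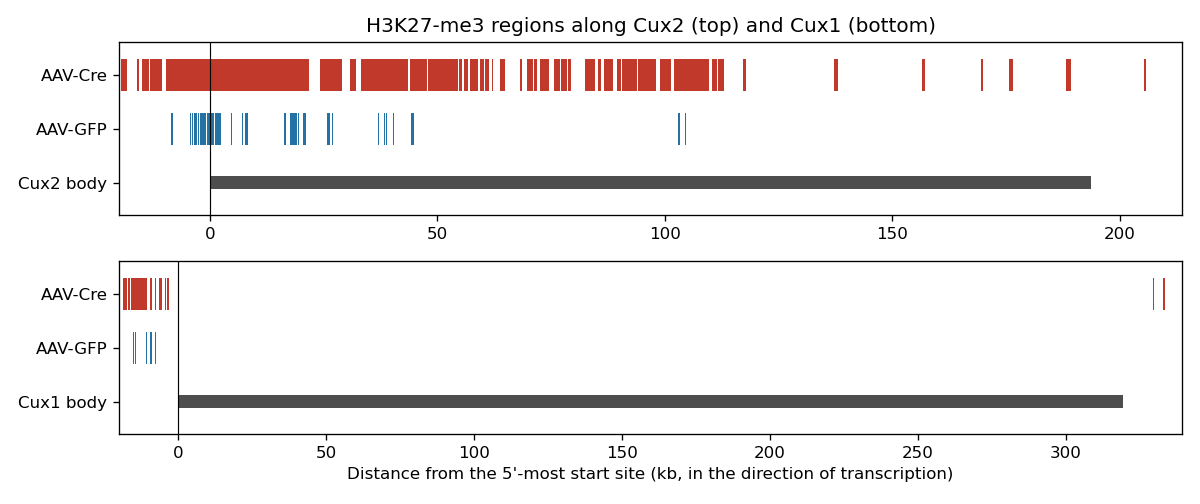
H3K27-me3 regions of AAV-Cre (red) and AAV-GFP (blue) along Cux2 (top) and Cux1 (bottom), with the gene body as a grey bar and distance in kb from the most upstream start site on the x axis. AAV-Cre regions cover 48.3% of the Cux2 body and AAV-GFP regions 5.03%, while 0 regions lie over the Cux1 body in either list.

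The 5 genes without a region within 1 kb in both lists were described one by one. At Msx2 (chr13:53466884-53473074), AAV-Cre had 10 regions within 15 kb, of which the one over the start site was 1017 bp wide with a q-value of 4.76e-12. AAV-GFP had 9 regions around Msx2, the nearest 2037 bp from the start site, and 0 over the body, of which AAV-Cre covered 53.8%. That nearest AAV-GFP region had a q-value of 0.11, and the lowest q-value of the 9, 2.11e-05, was that of a region 2565 bp away. At Pax4 (chr6:28442334-28449353), a region of 3368 bp with a fold of 7.84 and a q-value of 2.26e-29 lay over a start site in AAV-Cre. The nearest AAV-GFP region, of 996 bp with a q-value of 0.000308, lay 1155 bp upstream. Pax4 and Msx2 thus had regions nearby in both lists and differed in whether a region was called over the start site.

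Nkx2-6 and Six5 were the genes with the weakest signal. At Nkx2-6 (chr14:69171802-69175518), the AAV-Cre region over the start site was 619 bp wide with a fold of 2.34 and a q-value of 0.0573, and the nearest AAV-GFP region lay 18241 bp away. At Six5 (chr7:19094594-19098549), the 2 AAV-Cre regions lay 7024 and 8673 bp from the start site and were 926 and 669 bp wide, and the nearest AAV-GFP region lay 26046 bp away. Cux1 and Six5 were the genes marked at the start site in neither list.

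Among the 100 regions with the lowest p-values in each list, 6 of AAV-Cre and 5 of AAV-GFP lay at these genes. In AAV-Cre these were at Isl2, Pax9, Irx5, Lhx4, Nkx6-2 and the Hmx2 and Hmx3 pair, and in AAV-GFP at Onecut3, Dlx2, Lhx6, Pitx1 and Lhx2. No gene was in both sets, but how far the 2 sets of 100 overlap over all regions was not computed. All regions at the 56 genes made up 0.754% of the regions in AAV-Cre and 2.099% of those in AAV-GFP, and 91.5% of the AAV-Cre and 64.3% of the AAV-GFP regions there had a q-value of 0.05 or lower.

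Other developmental homeobox genes, a list of 41 that includes the Gsx, Otx and Barhl genes, were marked within 1 kb at 41 in AAV-Cre and 40 in AAV-GFP, with Vsx1 in AAV-Cre alone. Their median coverage within 15 kb was 55.9% and 27.9%, beside 65.2% and 32.5% for the 56 genes. Homeobox genes that are active in adult liver or in most tissues were marked within 1 kb at 6 of 24 in AAV-Cre and 5 in AAV-GFP, and their median coverage was 0% in both. Among them Hhex and Prox1, which act in liver development, had 0 regions within 1 kb in both lists. Within 15 kb Hhex had 3 regions in AAV-Cre and 0 in AAV-GFP. Hepatocyte genes such as Alb and Hnf4a had a region within 1 kb at 0 of 20 in both lists. Of 20 genes of other liver cell types, 12 had one in AAV-Cre and 9 had one in AAV-GFP. These lists describe where the mark was called and hold no measure of expression or of cell type shares.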

How the data were processed

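H3K27-me3 ChIP-seq of mouse liver was processed by the authors with the AQUAS histone pipeline and a pooled control: BWA 0.7.13 to mm10, SAMtools 1.2 and Picard 1.126 for filtering, MACS for peaks. Peaks found across both replicates of a group were kept, giving 1 list per group. The deposited columns are positions, a fold (ratio of ChIP to local input), −log10 p-values, −log10 q-values and a display score, which was not used. The lists hold no counts, so depth is unknown and no interval is given. The lists are narrow peak calls, which can split a broad domain into several regions. Whether they did so here was not tested.

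Groups were taken from the labels. Regions (the smallest gap in a list was 100 bp) were set against 21851 protein-coding genes of GENCODE M21 on 21 chromosomes, using start sites of basic protein-coding transcripts, windows of 1 and 15 kb, gene bodies and an overlap of at least 1 bp. No test between groups was made. Base composition and upstream sequence were read from the GRCm38.p6 assembly of RefSeq, where upstream sequence was considered for the 42 of the 56 genes in its promoter table. Pax3, Pax4, Lhx5, Nkx2-6, Nkx6-3, Dlx3, Dlx4, Dlx5, Dlx6, Irx1, Irx5, Irx6, Pitx1 and Onecut3 are not in that table.

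The 56 genes and the other lists were chosen with earlier results of these data known. Named in full were genes not marked within 1 kb in both lists, the highest and lowest of each family, and the 5 widest and the 5 highest and lowest ratios. Other genes named were chosen after their values were seen. Of the other developmental homeobox genes listed, Drgx was not found by name and was left out. Alternatives were q-value thresholds of 0.05 and 0.01, equal region number or covered length, a width of at least 300 bp, merging within 5 kb, all transcripts, windows of 5 and 50 kb and an overlap of 200 bp. Functions were tested on simulated data. Python 3.11.15, numpy 2.4.6, pandas 2.3.3, scipy 1.17.1 and matplotlib 3.10.9 were used.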

Additional observations from a re-analysis of the deposited data

How the results depend on the processing

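Of 138 values computed for 18 results under 10 alternatives, 123 stayed within 1.5 times the reported value. Some of the 123 could not move. Equal region number and equal covered length left the AAV-GFP list as it was, and a width of at least 300 bp left AAV-Cre as it was. Most of the 15 others came from reducing AAV-Cre to its 2792 regions with the lowest p-values, which cover as many bases as AAV-GFP. These values depend on that choice of regions. Genes marked within 1 kb were then 1 in AAV-Cre alone (Pax4) and 5 in AAV-GFP alone, within 15 kb 0 and 6, and over the body 1 and 5. The median coverage in AAV-Cre became 41.9%, and the ratio of covered bases 1.29 at the 56 genes and 0.9999 for the whole lists, the latter by construction. Merging regions up to 5 kb apart raised the median widest region to 32901 bp in AAV-Cre and 18113 bp in AAV-GFP and the median AAV-GFP coverage to 57.7%, also by construction, and coverage was then higher in AAV-Cre at 52 of 56. Genes marked within 1 kb in AAV-Cre alone numbered 5 with a q-value of 0.01 or lower (Irx4, Msx2, Pax4, Pax7 and Pax8) and 5 with an overlap of 200 bp (Irx3, Msx2, Nkx2-6, Pax4 and Pitx3). With a window of 50 kb in place of 15 kb, 0 genes were marked in AAV-Cre alone. No paired analysis was possible because each list pools both replicates of its group and the result comes from no test, and for the same reason no replicate could be left out. Depth is unknown, so a gene without a region is not shown to lack the mark.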
